A study of Arabidopsis thaliana with 6 samples.

Results

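The regions described here are 213 sites at which anti-GFP beads gave a peak in all 3 wild type libraries, in plants that carried no GFP. They were chosen by the positions of called peaks alone, as the peaks of wild type library 1 that share at least 1 bp with a peak of wild type library 2 and with a peak of wild type library 3. They made up 213 of the 972 peaks of wild type library 1 (21.9%), and the 6 single-library lists of the series held 32879 peaks in all. The 2 groups were RGA-GFP, plants that expressed a GFP-tagged RGA lacking the stretch through which gibberellin acts (RGAp:GFP-rga-delta17, driven by the RGA promoter), and wild type, the control without the epitope. Both groups were Landsberg-erecta plants of Arabidopsis thaliana, sampled as inflorescence apices with 3 biological replicates each, and the peak caller used no control for the single-library lists. A further list was called by the authors from the combined RGA-GFP libraries against the combined wild type libraries and is called the pooled list here. Reads of these plants were placed on TAIR10, the reference of the Columbia accession. No sequence of the sites was used here, and positions are given on TAIR10 as in the authors' lists.

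In chromatin immunoprecipitation, beads carry down some DNA that the antibody does not recognise, and a library from tissue without the epitope measures that background. Reads from repeated DNA can also pile up at the few copies present in the assembled genome, and such places are known in many organisms as regions of artificially high signal. In Arabidopsis the repeats are concentrated around the centromeres and at the ribosomal RNA gene arrays, and the pericentromere of chromosome 2 is known to carry a large insertion of mitochondrial DNA in the Columbia reference. Whether any site stems from repeats was not tested.

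Single libraries differed in depth and in the number of peaks. The RGA-GFP lists held 10636, 11116 and 9343 peaks from 14644122, 15704296 and 16745139 tags kept after duplicates were removed. The wild type lists held 972, 285 and 527 peaks from 10014730, 8808462 and 3999159 tags kept. Duplicates took 39.8%, 32.4% and 39.6% of the RGA-GFP tags and 63.4%, 34.9% and 62.1% of the wild type tags, so wild type libraries 1 and 3 stood apart from wild type library 2. In the file headers the wild type reads and the RGA-GFP reads stand in separately named project folders, and whether the 2 groups were prepared together is not given in the sources used here.

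The choice of the sites rested on overlaps between the wild type lists, so the numbers in this paragraph describe the choice and are not tested. Of the 972 peaks of wild type list 1, 257 shared bases with list 2 and 360 with list 3, while 568 shared bases with neither. The sites lay over 223 peaks of wild type list 2, which is 78.2% of that list, and over 228 peaks of wild type list 3, which is 43.3% of it. At the edge of the rule, the smallest overlap of a site was 111 bp (chr1:1236416-1236716), followed by 130 bp and 141 bp. Just outside it, a peak on chromosome 1 (chr1:7088775-7089152) missed the nearest peak of list 2 by 13 bp, and others missed by 74 bp and 133 bp. The count depended most on wild type library 2: without it the rule gave 360 sites, against 257 without library 3 and 224 without library 1.

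The sites were short and few compared with the genome. They covered 206 kb, ran from 301 to 6890 bp with a median of 625 bp, and 55 reached 1 kb. Chromosomes 1 to 5 held 31, 47, 48, 31 and 56 sites. The longest, of 6890 bp, lay on chromosome 4 (chr4:3054341-3061230), with pileups of 535, 532 and 550 in RGA-GFP libraries 1 to 3, against 547, 478 and 433 in wild type libraries 1 to 3. The pileup is the number of tags, extended to 300 bp, that cover the summit of a peak. This long site had nearly the same pileup in wild type library 1 and in the 3 RGA-GFP libraries, and the lowest in wild type library 3. In libraries other than wild type library 1, a site takes the highest pileup of any peak that shares at least 1 bp with it. That summit may lie outside the site, and 1 peak may serve several sites. With summits within 150 bp asked for in place of shared bases, the rule gave 160 sites.

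Most sites crowded around the centromeres. With centromeres taken to lie near 15, 3.6, 14, 4 and 12 Mb on chromosomes 1 to 5, 130 of the 213 sites (61.0%) had their summit within 2 Mb of one. Among the other 759 peaks of wild type list 1, 105 (13.8%) did. The RGA-GFP lists had 4.41%, 4.22% and 4.68% of their peaks there, and the pooled list 2.24%. The share of the sites was 54.5% at a limit of 1 Mb and 64.8% at 3 Mb. Without wild type library 2 the share within 2 Mb was 41.4%, and without library 1 or 3 it was 61.2% or 60.3%. Chromosome 5 contributed the most sites near a centromere, 45, followed by chromosome 3 with 30, chromosome 2 with 28, chromosome 4 with 19 and chromosome 1 with 8.

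**Figure D1:**
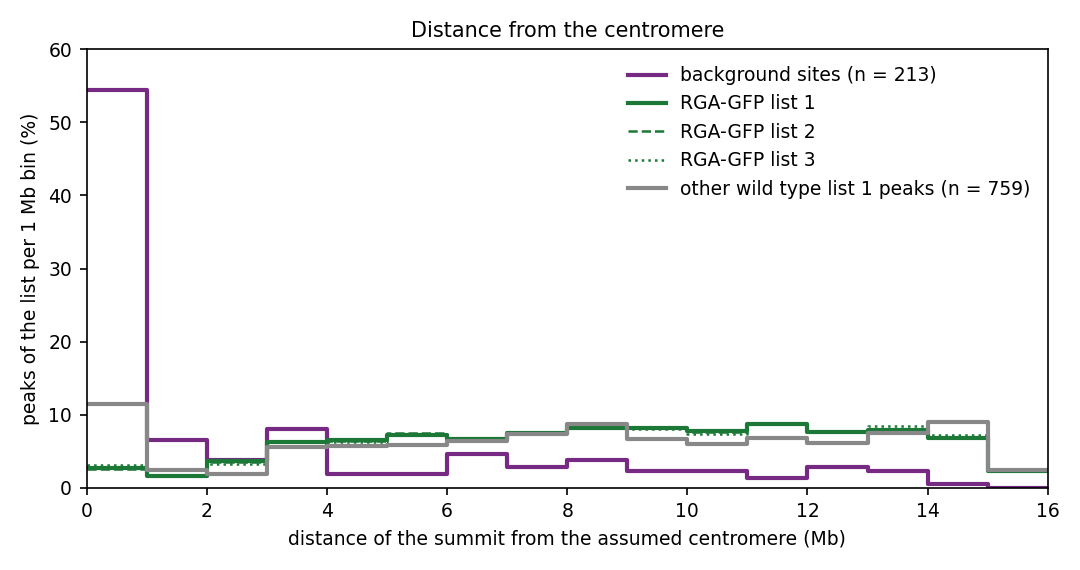
Share of peaks (%, vertical axis) in each 1 Mb bin of distance from the assumed centromere (Mb, horizontal axis), for the 213 background sites, the 3 RGA-GFP lists and the other 759 peaks of wild type list 1. Within the bin nearest the centromere lie 54.5% of the background sites, against 2.75%, 2.55% and 3.06% of the RGA-GFP lists and 11.5% of the other wild type peaks.

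The genes under the sites are described with no test. Of the 213 sites, 61 (28.6%) touched a protein-coding gene of the reference table and 35 (16.4%) a pseudogene, while 110 (51.6%) touched no gene. Of the other peaks of wild type list 1, 57.7% touched a protein-coding gene and 2.64% a pseudogene. The pooled list had 69.6% on a protein-coding gene and 1.63% on a pseudogene. Near the centromeres, 10.8% of the sites touched a protein-coding gene and 69.2% touched no gene. On the arms, 55.7% of the sites touched a protein-coding gene.

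Many sites came in clusters. Sites less than 50 kb apart were joined, a limit chosen after seeing the data, and 9 clusters of at least 5 sites then held 91 of the 213 sites (42.7%). The largest, on chromosome 5 (chr5:11651093-11808612), held 20 sites over 158 kb, of which 18 had a peak in all 3 RGA-GFP lists. Over these 18 sites the median pileup was 270.5, 269 and 294.5 in RGA-GFP libraries 1 to 3, against 293.5, 278.5 and 238 in wild type libraries 1 to 3. A cluster of 14 sites on chromosome 4 (chr4:3950553-4011525) had a peak in all 3 RGA-GFP lists at each of its sites. Its median pileup was 315, 315.5 and 339.5 in RGA-GFP libraries 1 to 3, against 339, 305.5 and 227 in wild type libraries 1 to 3. No pooled peak lay inside either cluster.

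Some of the highest sites stood at the upper limit of the pileup, where libraries cannot be told apart. The authors kept 1 tag per position and strand and extended tags to 300 bp, so that a summit can hold at most 600 tags, and 600 was the highest pileup in each of the 6 lists. It was reached in all 6 libraries at 3 sites: at AT2G01010, an rRNA gene (chr2:3233-4990), at AT2G01021 (chr2:5956-7278), and on chromosome 3 (chr3:14201691-14205086). The end of chromosome 2 is known to lie beside an array of ribosomal RNA genes, and the first 15 kb held 4 sites. The other sites there, of 2044 bp (chr2:1098-3141) and 1932 bp (chr2:8414-10345), had pileups of 573, 572 and 579, and of 552, 552 and 554, in RGA-GFP libraries 1 to 3. In wild type libraries 1 to 3 the same sites had 583, 572 and 550, and 557, 553 and 552. The fold over the local background had a median of 1.61, 1.60 and 1.58 at the 4 sites in the RGA-GFP lists and 1.53, 1.48 and 1.53 in the wild type lists. At the pseudogene AT3G20365 (chr3:7103444-7104827), the site with the fifth highest wild type pileup, wild type library 1 stood at the limit and the RGA-GFP libraries below it. The pileup there was 431, 504 and 504 in RGA-GFP libraries 1 to 3, against 600, 597 and 590 in wild type libraries 1 to 3.

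In the pericentromere of chromosome 2, some sites were lower in RGA-GFP than in wild type libraries 1 and 2. At AT2G07732 (chr2:3468104-3468735) the pileup was 497, 537 and 537 in RGA-GFP libraries 1 to 3, against 586, 581 and 544 in wild type libraries 1 to 3. At AT2G07670, a transcribed pseudogene (chr2:3506331-3509633), it was 158, 271 and 287 in RGA-GFP libraries 1 to 3, against 459, 424 and 250 in wild type libraries 1 to 3. Over the 6 sites of the cluster that holds both (chr2:3436556-3509633), the median ratio of the mean RGA-GFP pileup to that of wild type library 1 was 0.712. RGA-GFP libraries 2 and 3 lay above library 1 at both named sites, and wild type library 3 lay below the other wild type libraries.

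Pileups at the sites followed depth between wild type libraries 1 and 2, and differed less than depth between either of them and library 3. Across the 213 sites the lowest, median and highest pileup was 69, 140 and 600 in wild type library 1, 57, 125 and 600 in library 2, and 34, 93 and 600 in library 3. Wild type library 1 kept 1.14 times the tags of library 2, and the median ratio of their pileups was 1.08. It kept 2.50 times the tags of library 3, and there the median ratio was 1.50. Library 2 kept 2.20 times the tags of library 3, with a median ratio of 1.29. At 69 sites the highest of the 3 wild type pileups was less than 1.25 times the lowest, and at 31 sites less than 1.1 times. At 43 sites library 1 had at least 2 times the pileup of library 3. Each list holds only what passed its own threshold, and the lowest called pileup was 59, 57 and 32 in wild type libraries 1 to 3, so low sites enter these ratios only where all 3 libraries called them.

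Between the groups the ratio of pileups differed between the centromeres and the arms. The RGA-GFP libraries kept 1.46, 1.57 and 1.67 times the tags of wild type library 1, and over the 162 sites with an RGA-GFP peak the median ratio of the mean RGA-GFP pileup to that of wild type library 1 was 1.00. Near the centromeres, the 89 sites in all 3 RGA-GFP lists had a median ratio of 0.983. On the arms the 62 sites with an RGA-GFP peak had a median ratio of 1.65, within the range of the depth ratios; it was 2.87 at the 15 of them with a pooled peak and 1.21 at the 42 in all 3 lists without one. Of the 150 sites with a peak in all 3 RGA-GFP lists, each RGA-GFP pileup lay above each wild type pileup at 66 and below each at 16. Scaled to depth, as tags per 1000000 kept, these counts were 20 above and 110 below, so the direction depends on the scaling. The 110 include the 3 sites at 600 tags in all 6 libraries, where equal pileups must give lower scaled values at the greater RGA-GFP depth. Of the 31 sites at which the highest wild type pileup was less than 1.1 times the lowest, 28 are among the 110. Within the RGA-GFP group, the highest pileup was less than 1.25 times the lowest at 131 of the 150 sites (median ratio 1.11), while over the same sites the median ratio among the wild type libraries was 1.44. These ratios are not scaled to depth. Tags kept ran from 14644122 to 16745139 in the RGA-GFP libraries and more widely, from 3999159 to 10014730, in the wild type libraries.

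**Figure D2:**
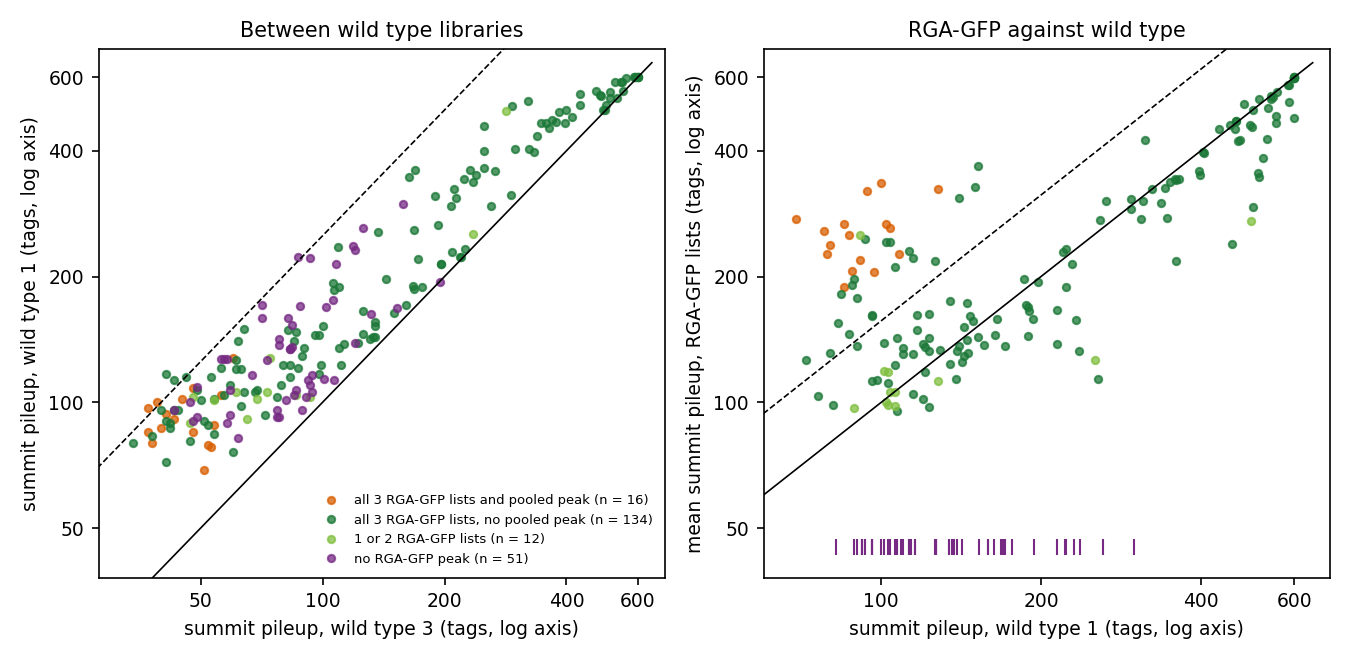
Summit pileup at the background sites (tags, log axes): left, wild type library 1 against wild type library 3; right, the mean of the RGA-GFP libraries with a peak against wild type library 1, with the 51 sites that have no RGA-GFP peak as ticks along the bottom at their wild type 1 pileup. The solid line marks equal pileup and the dashed line the ratio of tags kept; the high sites lie near the solid line, and the 16 sites with a pooled peak lie above the dashed line on the right.

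The RGA-GFP lists were not used to choose the sites, and they hold most of them. A peak of RGA-GFP libraries 1 to 3 lay on 155, 156 and 156 of the 213 sites (72.8%, 73.2% and 73.2%), and 150 sites (70.4%) had one in all 3 lists. Among the other peaks of wild type list 1, 85%, 84.8% and 83.9% had a peak in RGA-GFP lists 1 to 3, 81.8% had one in all 3, and 12.9% had none. A further 12 sites had a peak in 1 or 2 RGA-GFP lists, and 51 sites (23.9%) had none. The RGA-GFP peaks on sites numbered 164, 163 and 162, or 1.54%, 1.47% and 1.73% of the 3 lists.

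The next comparison asked whether an RGA-GFP library holds the background as a wild type library does. Sites shared by 2 wild type lists were looked for in the remaining wild type library and in the RGA-GFP libraries. RGA-GFP libraries 1 to 3 held 74.0%, 74.4% and 74.0% of such sites (mean 74.1% ± 0.22, SD, n = 3), each as the mean over 3 sets of 224, 360 and 257 sites. Wild type libraries 1 to 3 held 97.8%, 59.2% and 82.9% of the sites shared by the other wild type lists (mean 79.9% ± 19.5, SD, n = 3). Each wild type value comes from 1 set and rests on overlaps between wild type lists, as the choice of the sites does. The values of wild type libraries 2 and 3 are the 213 sites over the 360 and the 257, so they restate the rule. Set by set, RGA-GFP libraries 1 to 3 held 72.3%, 72.8% and 72.3% where wild type library 1 held 97.8%. They held 80.0%, 80.3% and 79.2% where wild type library 2 held 59.2%. Where wild type library 3 held 82.9%, they held 69.6%, 70.0% and 70.4%. The RGA-GFP values lay inside the range of the wild type values, and the difference of −5.83 percentage points was smaller than the spread (exact permutation test, two-sided, p = 0.7, adjusted over 5 tests 0.7; 0.1 is the smallest that 3 against 3 can give). This test cannot decide whether the groups differ, since their values come from unlike sets of sites. The wild type values also rest on the overlaps of the rule. The difference of the means was −26.0 points with peaks of −log10 q of at least 10 (exact permutation test, p = 0.1). It turned positive, 10.3, 24.6 and 15.6 points, without wild type library 1, 2 or 3, when each set is the whole list of a single library.

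The share of sites found in an RGA-GFP list was below that of other wild type peaks away from the centromeres and above it near them, in 3 of 3 libraries each. Over the whole genome the share was 73.1% ± 0.27 at the sites and 84.6% ± 0.57 at the other peaks of wild type list 1 (SD, n = 3 libraries), a difference of −11.5 ± 0.77 percentage points, in the same direction in 3 of 3 libraries (exact sign-flip permutation test, two-sided, p = 0.25, adjusted 0.31; 0.25 is the smallest that 3 libraries can give). Within 2 Mb of the centromeres the share was 71.5%, 70.0% and 70.0% at the 130 sites in RGA-GFP libraries 1 to 3, against 43.8%, 41.9% and 40.0% at the 105 other peaks. Farther away it was 74.7%, 78.3% and 78.3% at the 83 sites, against 91.6%, 91.7% and 91.0% at the 654 other peaks. The difference was thus 28.6 ± 1.22 points near the centromeres and −14.3 ± 2.25 points elsewhere (SD, n = 3 libraries; exact sign-flip permutation test, p = 0.25 each), a split chosen after seeing the data. The sites near the centromeres were also higher in wild type library 1, with a median pileup of 187.5 against 87 at the other peaks there, and the part of peak height in this difference was not tested. The genome-wide difference was 20.0 points in the other direction without wild type library 1, when the peaks of library 2 are the ones counted, and it was −3.57 points without library 2.

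**Figure D3:**
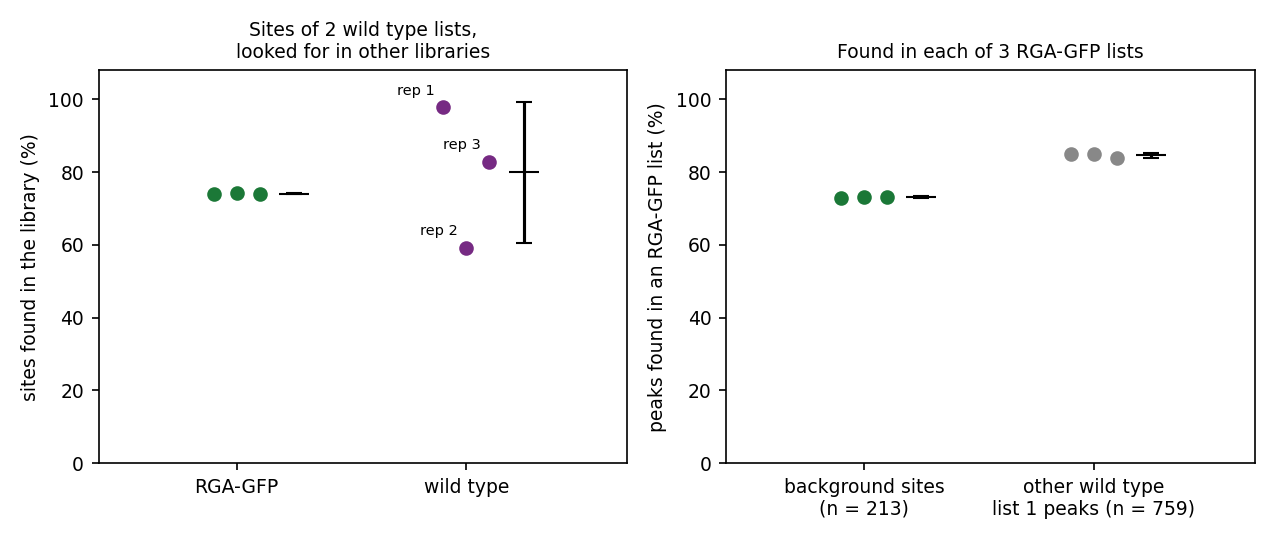
Left, share (%) of the sites of 2 wild type lists that is found in another library, for the 3 RGA-GFP libraries (74.0% to 74.4%) and the 3 wild type libraries (59.2% to 97.8%). Each RGA-GFP point is a mean over 3 sets of sites, and each wild type point comes from 1 set. Right, share (%) of the 213 background sites and of the other 759 peaks of wild type list 1 that is found in each of the 3 RGA-GFP lists; points are libraries, and the bars beside them give mean and SD.

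Inside each RGA-GFP list, peaks on the sites had a higher median pileup, length and fold than the rest. Their median pileup scaled to depth was 14.7, 13.6 and 12.9 in RGA-GFP libraries 1 to 3, against 7.72, 7.39 and 6.99 tags per 1000000 kept for the other RGA-GFP peaks, a difference of 6.38 ± 0.57 (SD, n = 3 libraries; exact sign-flip permutation test, two-sided, p = 0.25, adjusted 0.31). The median length was 677.5, 718 and 727 bp on the sites, against 505, 512 and 496 bp elsewhere, a difference of 203 ± 29.4 bp (exact sign-flip permutation test, p = 0.25, adjusted 0.31). The median fold over the peak caller's background was 2.39, 2.34 and 2.34 on the sites, against 2.12, 2.04 and 1.94 elsewhere (difference 0.32 ± 0.06, exact sign-flip permutation test, p = 0.25, adjusted 0.31). All 3 measures were higher on the sites in 3 of 3 libraries, also near the centromeres and away from them. Longer peaks share 1 bp with a site more easily, and a site had to be called in all 3 wild type lists. How much of the gaps comes from this way of choosing was not tested. The gap in fold was 0.20 near the centromeres, 0.61 away from them and 0.67 without wild type library 2. With peaks of −log10 q of at least 10, the gaps in fold and length were 0.014 and 8.33 bp (exact sign-flip permutation test, p = 1 and p = 0.5), and the libraries no longer agreed in sign.

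The pooled list, which sets the combined RGA-GFP reads against the combined wild type reads, left out most of the sites. It had a peak on 16 of the 213 sites (7.51%), against 58% of the other peaks of wild type list 1. Within 2 Mb of the centromeres these shares were 0.77% and 3.81%, and farther away 18.1% and 66.7%. The wild type reads whose peaks chose the sites are also the control of the pooled list. The low share at the sites thus follows in part from the choice. Of the 8112 pooled peaks, 17 (0.21%) lay on a site. The 134 sites in all 3 RGA-GFP lists without a pooled peak had a median pileup of 199, 213 and 216 in RGA-GFP libraries 1 to 3, against 189.5, 182 and 146.5 in wild type libraries 1 to 3. The share with a pooled peak depended on wild type library 2: without it the rule gave 360 sites, of which 29.2% had a pooled peak.

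The 16 sites with a pooled peak lay mostly on the arms and had high RGA-GFP and low wild type pileups. All but 1 lay outside the 2 Mb around the centromeres, and their median pileup was 262.5, 246 and 238.5 in RGA-GFP libraries 1 to 3, against 89.5, 64 and 46.5 in wild type libraries 1 to 3. At each of the 16, every RGA-GFP pileup lay above every wild type pileup, and with depth scaled this held at 14. The mean RGA-GFP pileup was 2.09 to 3.98 times that of wild type library 1. Among the wild type libraries at these sites, the median ratio of pileups was 1.31 for library 1 to library 2, 2.12 for library 1 to library 3 and 1.47 for library 2 to library 3, against depth ratios of 1.14, 2.50 and 2.20. The pooled list itself uses the same reads, so these values describe the sites and are no test of them.

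**Figure D4:**
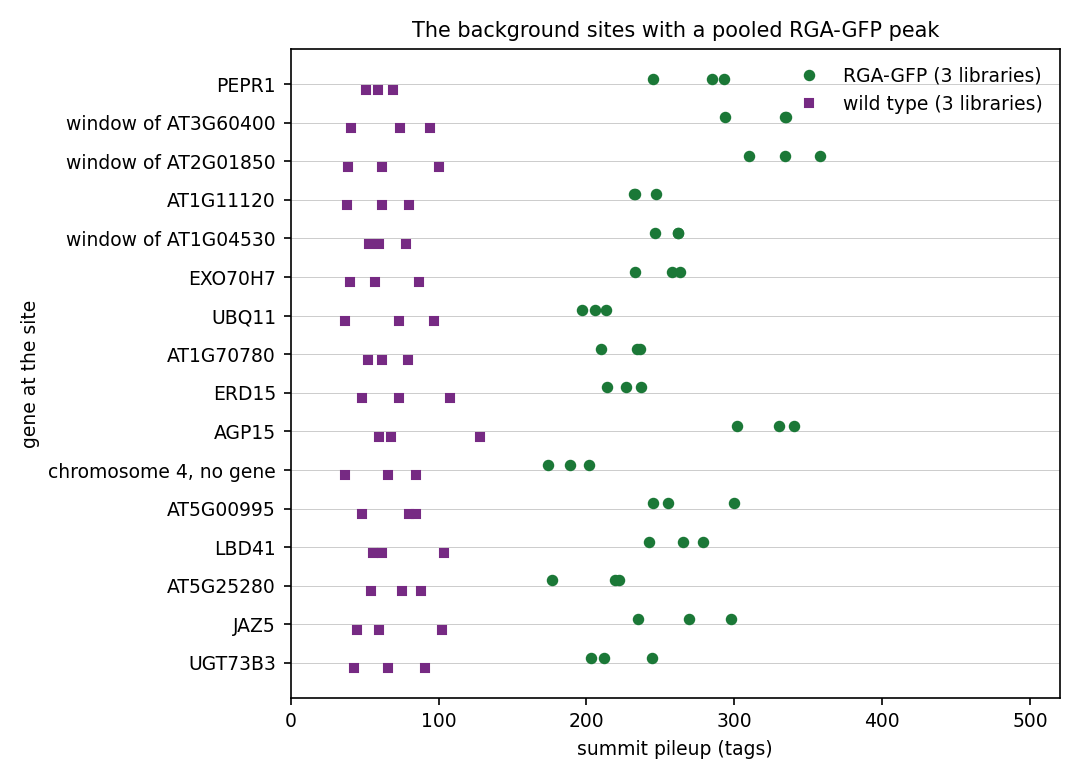
Summit pileup (tags, horizontal axis) at the 16 background sites with a pooled peak, one row per site, from the highest pooled fold at the top to the lowest. Circles are the 3 RGA-GFP libraries and squares the 3 wild type libraries; in each row every circle lies to the right of every square.

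The gene with the highest pooled fold at a site was PEPR1 (AT1G73080), a receptor kinase that perceives peptides released on wounding. Its site (chr1:27483906-27484366), which also touches AT1G73066, had pileups of 285, 293 and 245 in RGA-GFP libraries 1 to 3, against 69, 59 and 51 in wild type libraries 1 to 3, and a pooled fold of 1.91. The largest RGA-GFP excess at scaled depth was in the window of AT2G01850 (chr2:383074-383876), with 358, 310 and 334 tags in RGA-GFP libraries 1 to 3, against 100, 62 and 39 in wild type libraries 1 to 3. This is 1.27 higher in RGA-GFP on the log2 scale after scaling to depth, with a pooled fold of 1.74. A window here is the stretch around a gene in which the authors' deposited table counts peaks.

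By scaled excess, the next sites were those in the window of AT3G60400, at PEPR1, at EXO70H7, a subunit of the exocyst that tethers secretory vesicles, and at AT1G11120. At AT3G60400 (chr3:22327864-22328379) the pileup was 334, 335 and 294 in RGA-GFP libraries 1 to 3, against 94, 74 and 41 in wild type libraries 1 to 3. At EXO70H7 (chr5:24063704-24064410) it was 263, 233 and 258 in RGA-GFP libraries 1 to 3, against 87, 57 and 40 in wild type libraries 1 to 3. Of the other pooled-peak sites, 1 (chr4:11896781-11897498) touched no gene and lay in no window. The genes at the rest include UBQ11, a polyubiquitin gene, ERD15, a gene first found in drought-treated plants, AGP15, an arabinogalactan protein of the cell wall, and LBD41, a transcription factor of the lateral organ boundaries family. The pooled folds of these other sites ran from 1.27 at UGT73B3 and UGT73B2, which encode glucosyltransferases, to 1.68 at the site in the windows of AT1G04530 and AT1G04540.

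Of the genes listed for a look at known pathways, 3 had a site. The lists held 203 genes matched in the reference table, from jasmonate, touch, stress, WRKY, heat, histone, clock, photosynthesis, DELLA, meristem, abundant transcript, anther and root lists, and in the background 66 of 27444 protein-coding genes (0.24%) had a site. Matching was by symbol or synonym alone, so a symbol shared by different genes may have taken another gene than the one meant. It gave AT4G34190 for SEP1, AT2G21970 for SEP2 and AT1G58030 for CAT2, and these were not checked. JAZ5, a repressor of jasmonate responses, was the only one of 12 JAZ genes with a site. Another peak of wild type list 1 lay on 5 of the 12, against 1.68% of all protein-coding genes. The JAZ5 site (chr1:5957470-5958415) had 269, 298 and 235 tags in RGA-GFP libraries 1 to 3, against 102, 60 and 45 in wild type libraries 1 to 3, and a pooled fold of 1.38. RGA is known to bind JAZ proteins, which is a contact between proteins and not a binding of the JAZ5 gene.

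The others were ERF4, a repressor of ethylene-responsive genes, and UBQ10, a polyubiquitin gene used as a reference for expression. ERF4 (chr3:5121719-5123183) had pileups of 219, 213 and 220 in RGA-GFP libraries 1 to 3, against 126, 80 and 61 in wild type libraries 1 to 3. UBQ10 (chr4:2718400-2719758) had 208, 184 and 182 in RGA-GFP libraries 1 to 3, against 88, 60 and 52 in wild type libraries 1 to 3. Before scaling, the RGA-GFP values at both sites were all above the wild type values, and neither site had a pooled peak. The authors' deposited table gives a pooled fold of 1.44 for the ERF4 window, from a place outside the site, and 0 for the UBQ10 window. Scaled to depth the groups overlapped: ERF4 had 14.95, 13.56 and 13.14 tags per 1000000 kept in RGA-GFP libraries 1 to 3, against 12.58, 9.08 and 15.25 in wild type libraries 1 to 3. UBQ10 had 14.2, 11.7 and 10.9 in RGA-GFP libraries 1 to 3, against 8.79, 6.81 and 13.003 in wild type libraries 1 to 3. The other 11 lists had no site. Among them were the 22 photosynthesis genes, of which 21 had a pooled peak on the gene, against 20.8% of all protein-coding genes. The lists do not hold whole families: the windows of WRKY47 and HSP18.2, genes in none of the lists, each held a site. Of the 13426 windows of the authors' deposited table, 106 (0.79%) held a site, and 136 of the 213 sites lay in none.

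At the other end stood sites where RGA-GFP lay lowest relative to wild type. At the transcribed pseudogene AT2G18323 (chr2:7960006-7960908) the pileup was 87, 127 and 128 in RGA-GFP libraries 1 to 3, against 256, 244 and 137 in wild type libraries 1 to 3. At the pseudogene AT4G08340 (chr4:5267649-5268548) it was 276, 305 and 298 in RGA-GFP libraries 1 to 3, against 501, 505 and 492 in wild type libraries 1 to 3. The wild type values at AT4G08340 were nearly equal although wild type library 3 kept far fewer tags. The fold over the peak caller's background there was 5.56, 5.74 and 5.26 in RGA-GFP libraries 1 to 3 and 11.3, 11.8 and 14.6 in wild type libraries 1 to 3. That background can be local or genome-wide, so the folds of the groups may rest on unlike backgrounds. Scaled to depth, the differences of RGA-GFP from wild type at AT2G18323 and AT4G08340 were −2.02 and −1.92 on the log2 scale. On this scale the sites with 600 tags in all 6 libraries stood at −1.15, and the median of the 150 sites in all 3 RGA-GFP lists was −0.98.

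Of the 51 sites without an RGA-GFP peak, 27 lay on chromosome 3. Near its centromere 21 of 30 sites had none, against 0 of 19 on chromosome 4 and 7 of 45 on chromosome 5. In a stretch of 505 kb (chr3:13681779-14186654), 17 consecutive sites had none. The stretch was picked as the run with the most such sites, so few RGA-GFP against many wild type peaks follow in part from the choice. The whole stretch held 1, 1 and 1 RGA-GFP peaks in libraries 1 to 3, against 34, 24 and 20 wild type peaks in libraries 1 to 3. Pileups at its sites ran from 107 to 299 in wild type library 1, 74 to 218 in library 2 and 49 to 158 in library 3. The lowest called pileups in the RGA-GFP lists were 73, 76 and 82, and the RGA-GFP pileup at a place without a called peak is not given in the lists.

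**Figure D5:**
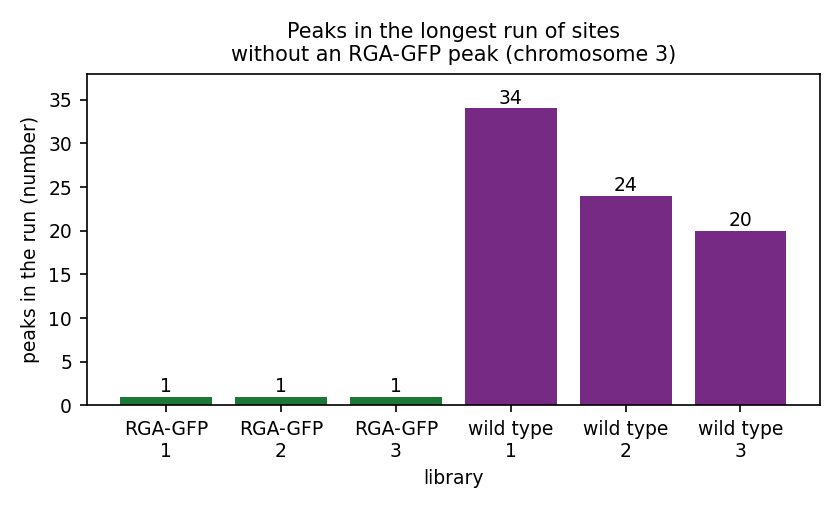
Number of peaks (vertical axis) of each single-library list in the 505 kb stretch of chromosome 3 that holds 17 consecutive sites without an RGA-GFP peak. The 3 RGA-GFP lists have 1 peak each there and the wild type lists 34, 24 and 20. The stretch was picked for its sites without an RGA-GFP peak, so this contrast follows in part from the choice.

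Single sites of the same kind stood on the arms. On the arm of chromosome 1, a site that touches no gene (chr1:21153031-21153634) had pileups of 194, 196 and 195 in wild type libraries 1 to 3 and no RGA-GFP peak. One in the windows of AT3G51820 and AT3G51830 (chr3:19219348-19219931) had 163, 153 and 132 in wild type libraries 1 to 3. There were 17 such sites on the arms, and at 15 of them the highest wild type pileup was less than 1.25 times the lowest. Near the centromeres, the 34 sites without an RGA-GFP peak had a median ratio of wild type library 1 to library 3 of 1.85, against 1.22 on the arms. Few were on genes: 5 of the 51 (9.80%) touched a protein-coding gene and 36 (70.6%) touched no gene.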

How the data were processed

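Peaks had been called from single-end ChIP-seq reads of 6 libraries. Per the submitters' processing notes, Bowtie2, SAMtools and MACS2 2.0.10 were used with the TAIR10 build. The headers of the lists name version 2.0.10.20130915 of MACS. Single-library lists were called, per the file headers, with a q cutoff of 0.05, a genome size of 90 Mb, a local background over 10000 bp and 1 tag kept per position, and the pooled list also used 1000 bp. Pileups are a signal that the authors took at each summit. The fold is the authors' ratio of pileup to the background that the peak caller used there, which can be local or genome-wide. At a site, libraries other than wild type library 1 give the highest pileup and fold among their peaks there. The deposited −log10 q value served as a filter (3 or 10). A window extends 3000 bp before and 1500 bp after a gene per the file headers, and the authors' deposited table gives counts of replicate lists in them.

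Lists were compared by overlaps of at least 1 bp (Python 3.11.15, pandas 2.3.3), a method tested on simulated intervals. Samples were grouped by title. Tests were exact permutation tests on library values, two-sided, adjusted over 5 tests by the Benjamini-Hochberg method. The smallest possible p was 0.1 between groups and 0.25 within the RGA-GFP libraries, so no test could reach 0.05. Genes were matched to a RefSeq table (TAIR10.1) for names, types and positions (98.8% of 13426 table genes matched). A peak touched a gene, or lay on it, where it shared at least 1 bp with the gene's span in that table. Centromere positions are approximate. Named sites were those with the highest wild type pileup, the highest and lowest RGA-GFP difference, no RGA-GFP peak, the smallest overlaps or the greatest length, with their genes and the listed genes. Sites picked to describe a cluster, the ribosomal end or a pooled peak were chosen after their values were seen. The members, lists and tests were chosen with earlier results of these data known. Alternatives were other overlaps, q limits, scalings and left-out libraries.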

Additional observations from a re-analysis of the deposited data

How the results depend on the processing

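The count of 213 sites lay between 142 and 257 under every alternative tried but 1: leaving out each wild type library gave 224 to 360, the highest without wild type library 2. The held-out difference, RGA-GFP minus wild type, was −5.83 points and ran from −5.96 to 24.6 with a library left out, positive whenever a wild type library was left out (10.3, 24.6 and 15.6). The genome-wide difference in share at the sites, against other wild type peaks, ran from −16.3 to 20.0 with a library left out, reversed without wild type library 1 (20.0), and was 28.6 points within 2 Mb of the centromeres, where the other peaks are fewer. The mean gaps in pileup, fold and length stayed positive, but with −log10 q of at least 10 those in fold and length were 0.014 and 8.33 bp, near 0. With a library left out they ranged over 5.73 to 6.61 tags per 1000000 kept, 0.286 to 0.674 and 189 to 265 bp. As deposited, without scaling, the gap in pileup was 99.8 tags. The share with a pooled peak was 29.2% without wild type library 2. The causes of these changes were not tested.

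With the replicate number as a block, the held-out difference was −5.60 points (exact sign-flip permutation test, p = 0.75). Same-numbered libraries share only a number in the labels, and the comparisons inside the RGA-GFP lists are already within a library. All lists hold chromosomes 1 to 5 only, so leaving out organelle chromosomes changed nothing. Depth limits what the lists can show: wild type library 3 kept the fewest tags, and a site without a called peak is not a site without tags.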
